A study of Drosophila melanogaster with 8 samples.

Results

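Head transcripts of Bully flies, labelled as a hyper-aggressive line of Canton-S origin, were compared with those of Canton-S flies (CantonS), the line it came from, after both had been raised at 25C. The comparison used 4 of the 8 libraries in the study, 2 for each line, and 8480 of the 15240 genes in the table, those whose mean over all 8 libraries reached 1 RPKM (RPKM, reads per kilobase of gene, scaled to the library's total reads). The other 4 libraries came from the same lines raised at 19C. All flies were adult Drosophila melanogaster, 6 days old and socially naive, and each library was made from total RNA of about 90 pooled whole heads. The labels name no transgene or drug treatment and give no sex. The labels give 1 stock for each line, so a difference that came with selection for fighting and any other difference between the stocks cannot be told apart. The series describes the libraries of a group as independent biological replicates, and the p-values below measure the spread between these samples only. The libraries of 25C are called Bully a, Bully b, CantonS a and CantonS b, and those of 19C carry the temperature in their name; the letters are names without order.

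At 25C the effective library sizes, worked out from the steps between RPKM values, were 99.1 and 84.2 M reads in Bully and 47.5 and 90.0 M reads in CantonS. For a gene of 1 kb, 1 read corresponded to 0.0101 and 0.0119 RPKM in Bully and 0.0211 and 0.0111 RPKM in CantonS. The log2 values of the replicates correlated at 0.984 in Bully and 0.983 in CantonS across genes, which are not independent replicates. Markers of head tissues were present in every library. The highest values of testis, ovary follicle and midgut markers at 25C were 0.656, 0.296 and 1.44 RPKM, that of accessory gland markers was 4.67 RPKM (Acp95EF), and the male-specific RNA roX1 stood at 123 and 159 RPKM in Bully heads, against 155 and 122 RPKM in CantonS heads. In whole heads, a change in the number of cells of a type and a change in RNA per cell cannot be told apart.

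A fly head holds the compound eyes, the brain, the antennae and mouthparts with their chemosensory organs, muscle, cuticle and a fat body that surrounds the brain. The fat body secretes storage proteins, yolk proteins and immune peptides and, with other tissues, carries much of the detoxification machinery. In that machinery cytochrome P450 enzymes oxidise lipophilic compounds, glutathione and glycosyl transferases attach polar groups to them, and ABC transporters pump them out. Each unit eye (ommatidium) has outer photoreceptors with the main rhodopsin Rh1, made from ninaE, and a pair of inner photoreceptors. In the pale type of ommatidium the inner cells carry Rh3 and Rh5, and in the yellow type they carry Rh4 and Rh6. Microbial infection turns on antimicrobial peptide genes through the Toll and Imd pathways.

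Of the 8480 genes, 158 were higher in Bully (1.86%) and 99 were lower (1.17%), 257 in all (3.03%), at an adjusted p below 0.05 (limma on log2(RPKM + 0.5), Benjamini-Hochberg adjustment over all genes tested). The median log2 difference of all genes tested was 0.05. An unadjusted p below 0.05 was found for 16.9% of them. The list counts below are to be read beside this share and the 3.03% called. Called genes had a median size of 1.03 on the log2 scale and none was below 0.55. At least 2-fold differences were found for 139 of them (1.64% of the genes tested), 78 higher and 61 lower, and at least 4-fold ones for 15 higher and 14 lower. The median level of the called genes at 25C was 5.86 RPKM, against 5.72 RPKM for all genes tested. In all 257 the libraries of the lines did not overlap, which was also so in the higher direction for 31.3% and in the lower direction for 20.4% of all genes tested. With each library's trend over gene length removed, an alternative added after seeing the data, the split was 173 higher and 175 lower.

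**Figure D1:**
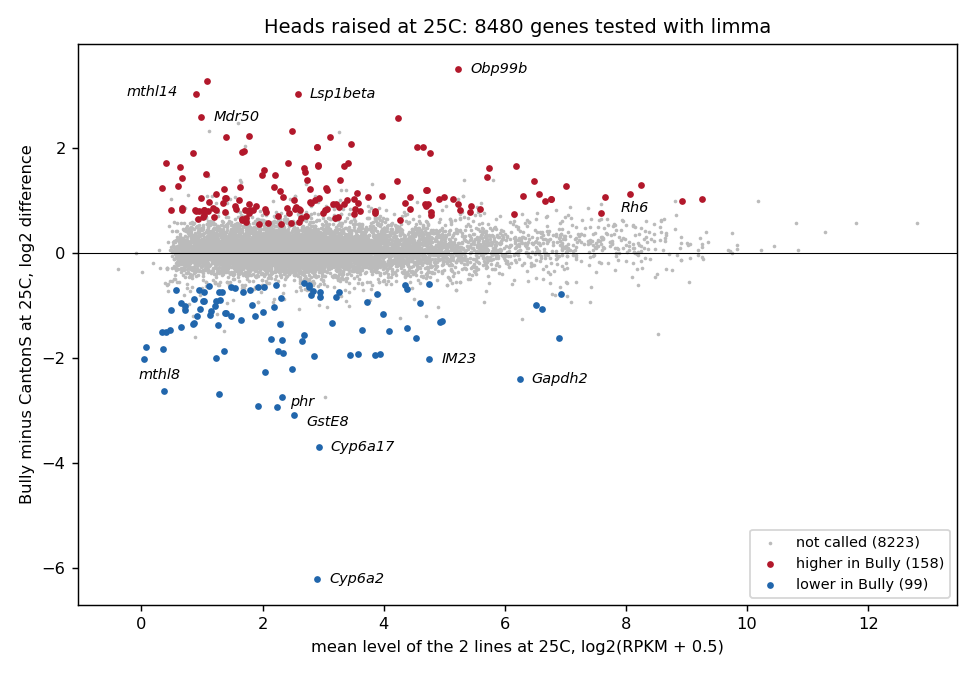
The log2 difference between Bully and CantonS heads at 25C (vertical axis) is plotted against the mean log2(RPKM + 0.5) of both lines (horizontal axis) for 8480 genes, with the 158 higher genes in red, the 99 lower genes in blue and the rest in grey. Cyp6a2 lies far below all other genes, and called genes occur over the whole range of levels up to Obp19d.

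The calls rested on small groups, and 56 of the 257 (28 higher and 28 lower) were kept when any 1 of the 8 libraries was left out. These 56 were also kept in every other alternative that tested them, where 129 of the 257 were kept. The count was 77 without Bully a, 100 without Bully b, 108 without CantonS a, and 394 and 398 when either CantonS library of 19C was left out. No called gene changed sign in any alternative or with any library left out. Of the 56, 7 were P450 genes and 27 had only a CG number as their name in the table, and a call of this set is named below as kept with any library left out.

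Detoxification enzymes differed in both directions and held the largest fall of all genes called. Cyp6a2, a P450 linked to DDT resistance, was almost silent in Bully, while its family member Cyp6a23, the P450 Cyp4d1 and the drug efflux transporter gene Mdr50 were several-fold higher. Of 60 P450 genes tested (of 81 in the table) 9 were higher and 8 lower (28.3% called, against 3.03% of all genes tested). Their median log2 difference was 0.11, against 0.05 for all genes. Cyp6a2 had 0.403 and 0.326 RPKM in Bully heads, against 63.5 and 64.6 RPKM in CantonS heads, a 176-fold lower mean (log2 difference -6.22, SE 0.13, adjusted p = 1.26e-07). Both Bully libraries thus lay far below both CantonS libraries, and the values within a line differed little. Cyp6a17, a P450 known for its part in temperature preference, had 2.02 and 1.23 RPKM in Bully heads, against 29.7 and 23.9 RPKM in CantonS heads (-3.70, SE 0.22, adjusted p = 7.43e-05). Cyp4p2 had 1.70 and 1.19 RPKM in Bully heads, against 12.1 and 12.8 RPKM in CantonS heads (-2.74, SE 0.15, adjusted p = 5.62e-05). Cyp12d1-p, of a pair of near-identical copies linked to insecticide resistance, had 7.01 and 3.40 RPKM in Bully heads, against 19.6 and 21.3 RPKM in CantonS heads (-1.95, SE 0.26, adjusted p = 0.00631). Its copy Cyp12d1-d kept a nearly constant ratio to it over the 8 libraries, so reads of the copies may have been shared between them.

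Among the P450 genes that rose, Cyp4d1 had 5.95 and 4.40 RPKM in Bully heads, against 0.640 and 0.792 RPKM in CantonS heads (2.21, SE 0.15, adjusted p = 1.76e-04). Cyp6w1, another P450 tied to insecticide resistance, had 106 and 81.7 RPKM in Bully heads, against 33.3 and 26.8 RPKM in CantonS heads (1.62, SE 0.19, adjusted p = 0.00338). Cyp6a23 had 14.9 and 10.9 RPKM in Bully heads, against 3.73 RPKM in each CantonS library (1.65, SE 0.16, adjusted p = 0.0014). No Bully value of these genes reached down to a CantonS value. Cyp6a2, Cyp6a17, Cyp4p2, Cyp12d1-p, Cyp4d1, Cyp6w1 and Cyp6a23 made up the P450 genes whose calls were kept with any library left out. Cyp6a8, which is inducible by drugs, was also higher, with 65.1 and 36.3 RPKM in Bully heads and 14.5 and 9.25 RPKM in CantonS heads (2.02, adjusted p = 0.0173). Its call was lost without Bully a (adjusted p = 0.115) and without CantonS b (0.0726). The other P450 calls were Cyp28a5, Cyp305a1, Cyp309a2, Cyp311a1 and Cyp9c1 (higher, 0.57 to 1.37) and Cyp12d1-d, Cyp6a14, Cyp313a1 and Cyp4p1 (lower, -1.92 to -0.75). Of these, Cyp6a14 was lost without Bully a (adjusted p = 0.0514), and Cyp12d1-d without CantonS a (0.0501). Cyp28a5 was lost without Bully a, Bully b or CantonS b (up to 0.115), Cyp305a1 without any 1 of the 4 libraries of 25C (up to 0.164), and Cyp309a2, Cyp311a1, Cyp9c1, Cyp313a1 and Cyp4p1 each without Bully a and 4 or 5 other single libraries, none of them of CantonS 19C (up to 0.244). Without Bully a the list held 3 higher and 5 lower genes. Cyp9c1 overlaps the noncoding gene CR43787 and moved in proportion to it.

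In the RefSeq annotation (Release 6) Cyp6a22, Cyp6a17, Cyp6a23, Cyp6a9, Cyp6a20, Cyp6a21 and Cyp6a8 lie in this order in 1 cluster on chromosome arm 2R, and the lines did not differ in 1 direction across it. Cyp6a17 fell and its next neighbour Cyp6a23 rose, as did Cyp6a8 at the far end. The genes between them were not called, with log2 differences of 0.17 for Cyp6a9 (adjusted p = 0.519), 0.10 for Cyp6a20 (0.852) and 0.17 for Cyp6a21 (0.667). Cyp6a20, which earlier fly work tied to aggression, had 27.7 and 20.9 RPKM in Bully heads, against 25.9 and 19.6 RPKM in CantonS heads, so its libraries overlapped. Cyp6a22 was at -0.64 (adjusted p = 0.183). The copies of this cluster resemble each other in sequence, and how reads that match several of them were counted is not given in the sources used here. Summed over the 81 P450 genes, the lines overlapped, with 1397 and 1132 RPKM in Bully heads and 1217 and 1058 RPKM in CantonS heads.

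Of the conjugating enzymes, GstE8 was lower in Bully, with 1.66 and 1.29 RPKM, against 14.2 and 18.3 RPKM in CantonS heads (-3.08, SE 0.25, adjusted p = 4.75e-04). It was 1 of 28 glutathione transferase genes tested, of which 2 rose, GstS1 (0.63, adjusted p = 0.0334) and GstD9 (0.78, adjusted p = 0.0412), and 1 fell. The list's median was 0.06. Both rises were lost without any 1 of the 6 libraries outside CantonS 19C (adjusted p up to 0.27), while GstE8 kept its call. Of 8 UDP-glycosyltransferase genes tested, Ugt58Fa rose and 2 fell. Ugt86Dd (Ugt35C1 in RefSeq), a gene tied to nicotine resistance, had 2.18 and 1.80 RPKM in Bully heads, against 8.38 and 6.21 RPKM in CantonS heads (-1.64, SE 0.20, adjusted p = 0.00391). Ugt86De was at -0.95 (adjusted p = 0.00939), lost without Bully a (0.0777) and CantonS b (0.0514), and Ugt58Fa at 0.76 (0.0334), lost without any 1 of the 6 libraries named above (up to 0.193). Mdr50 had 4.96 and 3.8 RPKM in Bully heads, against 0.311 and 0.297 RPKM in CantonS heads (2.59, SE 0.16, adjusted p = 9.21e-05). It was the only call among 17 detoxification transporters and esterases, whose median was 0.15. Among 16 regulators and enzymes of the xenobiotic and oxidative stress response, such as cnc, Keap1 and the superoxide dismutases, limma called 0, with 1 gene at an unadjusted p below 0.05, a level that 16.9% of all genes passed.

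**Figure D2:**
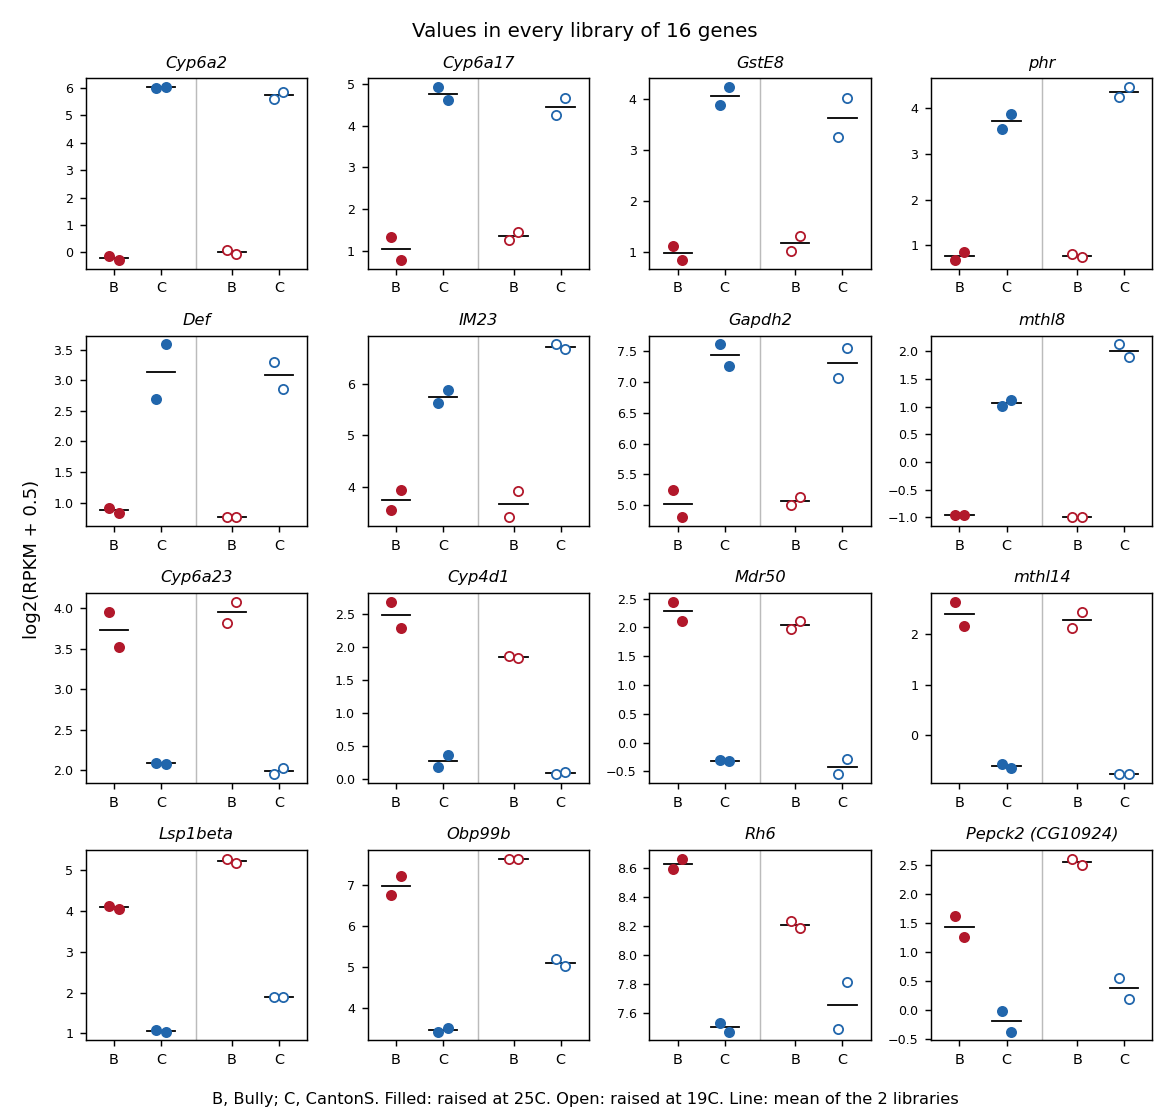
Values of 16 genes in every library are plotted as log2(RPKM + 0.5), with Bully (B) left of CantonS (C), filled points for 25C, open points for 19C, and a line at the mean of the 2 libraries of a group. In each of these genes both Bully libraries lie on 1 side of both CantonS libraries at 25C and also at 19C.

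A gene of DNA repair stood beside the detoxification genes in size of difference. The gene phr encodes the photolyase that uses light to split pyrimidine dimers in DNA. It had 1.10 and 1.31 RPKM in Bully heads, against 11.2 and 14.2 RPKM in CantonS heads (-2.95, SE 0.15, adjusted p = 3.68e-05), and its call was kept with any library left out. It was the only call among 8 photolyase and nucleotide repair genes tested, whose median was -0.03. NLaz, a lipocalin gene that acts in stress resistance and metabolism, had 3.32 and 2.92 RPKM in Bully heads, against 15.6 and 11.8 RPKM in CantonS heads (-1.96, SE 0.23, adjusted p = 0.0035), also kept. The small heat shock protein gene Hsp67Bc fell as well, with 2.5 and 1.96 RPKM in Bully heads and 4.92 and 5.97 RPKM in CantonS heads (-1.12, adjusted p = 0.00494). It was the only call among 26 heat shock and chaperone genes, whose median was 0.31 but 0.013 without Bully a, 0.047 without CantonS a and 0.56 without CantonS b. The libraries of the lines did not overlap in any of the genes called here.

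Immune effector genes differed in both directions, while the listed recognition and signalling genes of Toll and Imd did not pass the test. The effectors covered were the classical antimicrobial peptides and the immune-induced (IM) peptides, many of which are now called Bomanins and Daisho peptides. Def, the defensin that acts on Gram-positive bacteria, had 1.39 and 1.28 RPKM in Bully heads, against 5.96 and 11.6 RPKM in CantonS heads (-2.27, SE 0.27, adjusted p = 0.0035). IM23 (BomBc1 in RefSeq), a Bomanin gene of the Toll response, had 11.1 and 14.8 RPKM in Bully heads, against 48.8 and 58.4 RPKM in CantonS heads (-2.02, SE 0.21, adjusted p = 0.00162). Both calls were kept with any library left out. CG18107 (BomS4) had 66.8 and 67.8 RPKM in Bully heads, against 182 and 238 RPKM in CantonS heads (-1.62, adjusted p = 0.0044). CG13422 (GNBP-like3 in RefSeq) stood outside the lists of effectors and of recognition genes. It had 9.33 and 10.9 RPKM in Bully heads, against 22.6 and 23.9 RPKM in CantonS heads (-1.16, adjusted p = 0.00489). These last calls were lost by a small margin without Bully a (adjusted p = 0.0501 and 0.0543).

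Other effectors were higher in Bully. Drsl5, a drosomycin-like peptide, had 125 and 156 RPKM in Bully heads, against 42.3 and 68.8 RPKM in CantonS heads (1.37, adjusted p = 0.0295). IM14 (Dso2, a Daisho peptide active against fungi) had 558 and 384 RPKM in Bully heads, against 147 and 243 RPKM in CantonS heads (1.29, adjusted p = 0.0396). IM18 had 17.8 and 10.6 RPKM in Bully heads, against 1.99 and 4.51 RPKM in CantonS heads (2.01, adjusted p = 0.0145), and CG10332 had identical values, so their reads cannot be separated. In each case the lines did not overlap, but the calls depended on single libraries. Drsl5 was lost without Bully a, Bully b or CantonS a (adjusted p up to 0.22), IM18 without Bully a (0.113) or CantonS a (0.0643), and IM14 without any library other than CantonS b (up to 0.208).

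In all, 1 of 13 antimicrobial peptide genes tested was higher and 1 lower, and 2 of 12 IM genes were higher and 1 lower. The calls of CG18107 and CG13422 stood outside these lists. Limma called 0 of 26 recognition and signalling genes of Toll and Imd, with 4 at an unadjusted p below 0.05. Over all genes tested 3.03% were called and 16.9% had an unadjusted p below 0.05. The median of the antimicrobial peptide genes was 0.95, but it was decided by 1 library. It was -0.64 without Bully a and 2.29 without Bully b. In 9 of the 13 genes Bully a had at least 5 times the value of Bully b, by factors of 5.30 to 57.4, while the other 4 genes, Def, Drs, Drsl4 and Drsl5, had factors of 0.80 to 1.09. DptB, a diptericin acting on Gram-negative bacteria, had 27.5 and 0.897 RPKM in Bully heads, against 4.07 and 1.78 RPKM in CantonS heads (adjusted p = 0.736). CecA1, a cecropin, had 25.8 and 1.08 RPKM in Bully heads, against 5.36 and 2.86 RPKM in CantonS heads (adjusted p = 0.846). AttA, an attacin, had 41.7 and 7.48 RPKM in Bully heads, against 3.09 and 3.34 RPKM in CantonS heads (2.31, adjusted p = 0.106). For DptB and CecA1 the lines overlapped, and the single high library was Bully a. Def, IM23, CG18107 and CG13422 were lower in both Bully libraries than in both CantonS libraries. The 8 hemocyte markers in the table summed to 53.0 and 36.9 RPKM in Bully heads and 52.0 and 34.1 RPKM in CantonS heads, and their part in these results was not tested.

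At 25C most genes of the eye lists had differences above 0, few of which passed the test, and the rhodopsins of yellow ommatidia were higher relative to those of pale ommatidia. Of the 7 rhodopsin genes tested, Rh6 and Rh4 rose and Rh5 fell. Rh6, the green-sensitive rhodopsin of yellow ommatidia, had 387 and 406 RPKM in Bully heads, against 185 and 177 RPKM in CantonS heads (1.13, SE 0.16, adjusted p = 0.00822). Rh4, the ultraviolet rhodopsin of the same ommatidia, had 726 and 637 RPKM in Bully heads, against 339 and 349 RPKM in CantonS heads (0.98, SE 0.21, adjusted p = 0.045). Rh5, the blue-sensitive rhodopsin of pale ommatidia, had 96.2 and 87.4 RPKM in Bully heads, against 149 and 168 RPKM in CantonS heads (-0.78, SE 0.16, adjusted p = 0.0368). The lines did not overlap in these 3 genes. Rh3, the partner of Rh5 in pale ommatidia, overlapped, with 228 and 247 RPKM in Bully heads and 203 and 247 RPKM in CantonS heads (0.08, adjusted p = 0.837). The calls of Rh6 were lost without Bully a (adjusted p = 0.0659) or Bully b (0.0765), and those of Rh4 and Rh5 without any 1 of the 6 libraries outside CantonS 19C (up to 0.212 and 0.25).

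A ratio within a library does not depend on the scaling between libraries, and these ratios were chosen after their values had been seen and were not tested. Rh6 over Rh5 was 4.02 and 4.64 in Bully heads at 25C, against 1.24 and 1.06 in CantonS heads. At 19C it was 2.77 and 2.84 in Bully heads, against 0.912 and 0.941 in CantonS heads. Rh4 over Rh3 was 3.18 and 2.58 in Bully heads at 25C and 2.81 and 2.51 at 19C, against 1.67 and 1.41 in CantonS heads at 25C and 1.19 and 1.5 at 19C. All 4 Bully libraries were above all 4 CantonS libraries in both ratios. Of the remaining rhodopsins, ninaE had 8643 and 8900 RPKM in Bully heads, against 5766 and 6047 RPKM in CantonS heads (0.57, adjusted p = 0.247). Rh2 of the ocelli was at 0.36 (adjusted p = 0.329), and Rh7, a rhodopsin described in clock neurons, lay at 2.58 to 3.0 RPKM in the 4 libraries (-0.01, adjusted p = 0.978).

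**Figure D3:**
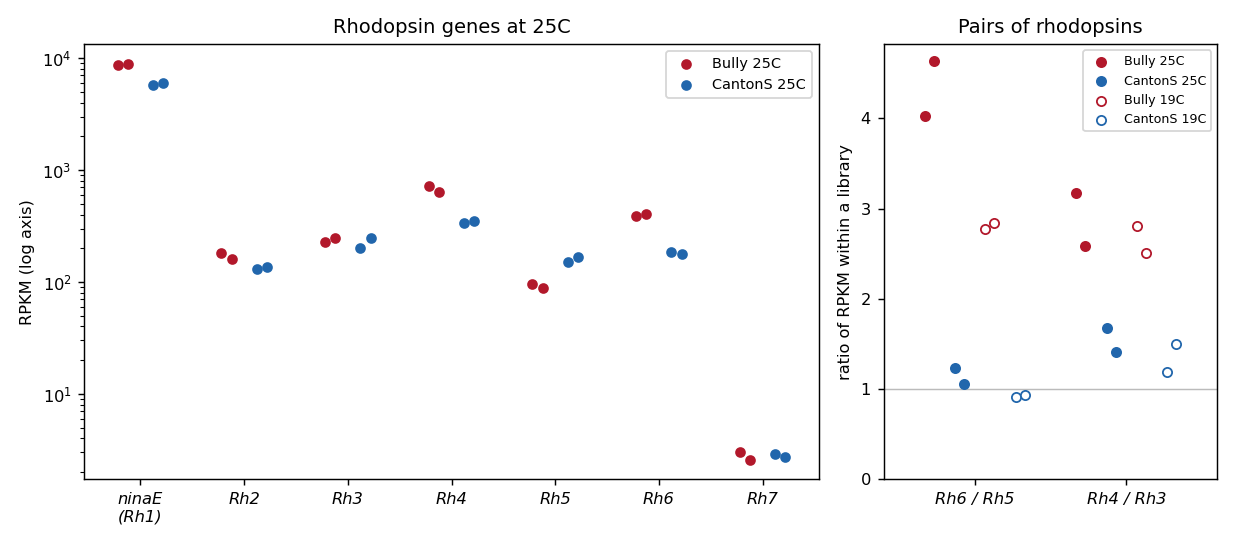
Left, RPKM of the 7 rhodopsin genes at 25C on a log axis, with the Bully libraries left of the CantonS libraries. Right, the ratio of RPKM within each library for Rh6 over Rh5 and Rh4 over Rh3, with filled points for 25C and open points for 19C. Both ratios are above 2.5 in every Bully library and below 1.7 in every CantonS library.

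Among 33 other phototransduction genes 2 rose and 0 fell, and 30 had a difference above 0, with a median of 0.34. At 19C the median of this list was -0.09 and that of the rhodopsins 0.03, against 0.36 for the rhodopsins at 25C. In 24 of the 33 the libraries did not overlap in the higher direction, which was so for 31.3% of all genes tested. The called genes were rtp, which encodes retinophilin, a photoreceptor protein that works with the myosin NINAC, with 232 and 270 RPKM in Bully heads and 143 and 151 RPKM in CantonS heads (0.76, adjusted p = 0.0325), and ninaA, the chaperone that brings Rh1 to the light-sensing membrane, with 87.7 and 94.8 RPKM in Bully heads and 48.1 and 61.8 RPKM in CantonS heads (0.74, adjusted p = 0.0479). The retina-specific calcium-binding protein gene Cpn, which stood outside the list, rose too (0.82, adjusted p = 0.0164). Abundant genes that did not pass were retinin, a corneal lens protein gene (0.98, adjusted p = 0.059), chp, the photoreceptor adhesion protein gene (0.57, 0.124), and trp, the light-activated channel gene (0.49, 0.133). The 10 photoreceptor markers summed to 15311 and 14938 RPKM in Bully heads, against 10460 and 11143 RPKM in CantonS heads, and the 5 pigment cell markers to 42.1 and 36.2 RPKM, against 32.7 and 32.4 RPKM. The part of eye cell number in these results was not tested. After quantile normalization, which gives the most abundant gene the same value in every library, the median was 0.21 for the phototransduction list, 0 for the rhodopsins and 0.033 for the photoreceptor markers (0.44 without it). With single libraries left out Cpn was lost without Bully a, Bully b or CantonS b (adjusted p up to 0.115), ninaA without Bully a, Bully b, CantonS a or either Bully library of 19C (up to 0.273), and rtp without any 1 of the 6 libraries outside CantonS 19C (up to 0.243).

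Of 21 eye pigment genes tested 2 rose and 0 fell, with a median of 0.14. They were cd, needed for the brown ommochrome pigments, with 3.99 and 2.84 RPKM in Bully heads and 1.45 and 0.922 RPKM in CantonS heads (1.22, adjusted p = 0.0155), and se, an enzyme gene of the red drosopterin pigments, with 31.9 and 29.3 RPKM in Bully heads and 12.1 and 17.2 RPKM in CantonS heads (1.06, adjusted p = 0.0235). The pigment precursor transporter genes bw (0.49, adjusted p = 0.0878) and st (0.54, adjusted p = 0.132) did not pass. The call of cd was lost without Bully a (0.115) or CantonS b (0.065), and that of se without Bully a, Bully b or CantonS a (up to 0.15).

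A few storage and secreted proteins of the fat body were among the largest rises. Of 12 head fat body genes tested 4 rose and 0 fell, with a median of 0.34 and 5 differences below 0. Obp99b, an odorant binding protein gene active in the head fat body, had 106 and 147 RPKM in Bully heads, against 10.3 and 10.9 RPKM in CantonS heads (3.5, SE 0.17, adjusted p = 3.68e-05). Lsp1beta, a larval serum storage protein gene, had 17 and 16.1 RPKM in Bully heads, against 1.63 and 1.56 RPKM in CantonS heads (3.03, SE 0.11, adjusted p = 7.09e-06). Both lines were tight around their means in Lsp1beta, and these 2 calls were kept with any library left out. Lsp2, the storage protein gene that stays active in adults, had 159 and 119 RPKM in Bully heads, against 74.5 and 52.4 RPKM in CantonS heads (1.13, adjusted p = 0.0388). Yp3, a yolk protein gene, had 16.3 and 15.6 RPKM in Bully heads, against 7.49 and 8.67 RPKM in CantonS heads (0.94, adjusted p = 0.0121). Lsp2 was lost without any 1 of the 6 libraries outside CantonS 19C (up to 0.208), and Yp3 without Bully a, Bully b or CantonS a (up to 0.101).

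Other fat body genes did not pass the test. The sugar-responsive gene tobi had 19.4 and 14.8 RPKM in Bully heads, against 27.7 and 26.6 RPKM in CantonS heads (-0.67, adjusted p = 0.0668), and Yp1, with 1.94 and 1.40 RPKM in Bully heads and 1.34 and 0.686 RPKM in CantonS heads, was not called (0.54, adjusted p = 0.30). The storage protein gene Lsp1alpha lay below the filter and went the other way from Lsp1beta, with 0.247 and 0.111 RPKM in Bully heads and 1.05 and 0.657 RPKM in CantonS heads. The female-enriched satiety gene fit was at 1.30 (adjusted p = 0.124), with 21.8 and 19.8 RPKM in Bully heads and 12.4 and 5.25 RPKM in CantonS heads. Yolk protein genes and fit are more active in females. The 6 sex-linked and female-enriched markers summed to 168 and 201 RPKM in Bully heads and 182 and 141 RPKM in CantonS heads. Most of this sum was the male-specific RNA roX1, so it says little about the female-enriched genes. Of these, Yp1, Yp3 and fit were higher in both Bully libraries than in both CantonS libraries. Yp2 overlapped, with 0.396 and 0.390 RPKM in Bully heads and 0.623 and 0.329 RPKM in CantonS heads. The part of sex in these results was not tested. The 8 fat body markers summed to 422 and 455 RPKM in Bully heads and 419 and 344 RPKM in CantonS heads, and Fbp1, of the larval fat body, was at or below 0.0614 RPKM in each library of 25C. The lowest Bully sum and the highest CantonS sum of these markers were thus close together, and their part in these results was not tested.

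Odorant binding proteins carry hydrophobic odours and pheromones through the fluid around sensory neurons, and several are also secreted elsewhere. Of 27 tested (of 53) 4 rose and 2 fell, with a median of -0.01 that rested on single libraries (0.35 without Bully a, -0.44 without Bully b, 0.24 without CantonS a, -0.22 without CantonS b). Besides Obp99b, Obp44a rose, with 299 and 281 RPKM in Bully heads and 118 and 161 RPKM in CantonS heads (1.07, adjusted p = 0.0244). Obp19d, the most abundant called gene, had 771 and 983 RPKM in Bully heads, against 373 and 483 RPKM in CantonS heads (1.04, adjusted p = 0.0498). Obp83cd rose by 0.80 (adjusted p = 0.0325). Obp56h, a gene with a role in male mating behaviour, fell, with 6.41 and 7.30 RPKM in Bully heads and 23.9 and 32.6 RPKM in CantonS heads (-1.95, adjusted p = 0.022). Obp57d also fell (-1.14, adjusted p = 0.0297), but it overlaps the cuticle gene Cpr57A and moved in proportion to it, so their reads cannot be separated. Only Obp99b was kept with any library left out; Obp56h and Obp83cd were lost without any 1 of the 4 libraries of 25C (up to 0.142 and 0.178), Obp44a without Bully a, Bully b or CantonS a (up to 0.152), Obp57d without Bully a, Bully b or CantonS b (up to 0.159), and Obp19d without any 1 of the 6 libraries outside CantonS 19C (up to 0.312). Of 197 odorant, taste and ionotropic receptor genes in the table, 7 were tested, and limma called 0 of them, with 3 at an unadjusted p below 0.05.

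Among genes of energy metabolism a few single enzyme genes were called, and pathways as a whole were not tested. Gapdh2, a gene of the glycolytic enzyme glyceraldehyde phosphate dehydrogenase, had 37.4 and 27.4 RPKM in Bully heads, against 195 and 153 RPKM in CantonS heads (-2.41, SE 0.22, adjusted p = 9.32e-04). The other gene for this enzyme, Gapdh1, had 132 and 141 RPKM in Bully heads, against 114.6 and 112.9 RPKM in CantonS heads (0.26, adjusted p = 0.417). The ratio of Gapdh2 over Gapdh1 was 0.283 and 0.194 in Bully heads, against 1.70 and 1.35 in CantonS heads, a description chosen after the values had been seen. Of 32 sugar and energy store enzyme genes tested, Gapdh2 fell and Sodh-2, a sorbitol dehydrogenase gene, rose (0.76, adjusted p = 0.0388). That was 6.25% called, against 3.03% of all genes tested. The list's median was 0.16, and 25 differences were above 0 and 7 below. The libraries did not overlap in 15 genes in the higher and 6 in the lower direction, against 31.3% and 20.4% of all genes tested. CG10924 (Pepck2 in RefSeq), a gene of the gluconeogenic enzyme phosphoenolpyruvate carboxykinase, had 2.57 and 1.89 RPKM in Bully heads, against 0.488 and 0.273 RPKM in CantonS heads (1.63, SE 0.19, adjusted p = 0.00338). Gapdh2 and CG10924 kept their calls with any library left out.

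Limma called 0 of 18 lipid storage, synthesis and breakdown genes, with 4 at an unadjusted p below 0.05, a median of -0.06 and 10 differences below 0. The shares over all genes tested were 3.03% called and 16.9% at an unadjusted p below 0.05. Outside these lists, a few abundant enzyme genes were picked after their values had been seen and do not stand for a pathway. Got2, the aspartate aminotransferase gene of mitochondria, had 152 and 131 RPKM in Bully heads, against 65.3 and 76.8 RPKM in CantonS heads (0.99, adjusted p = 0.021). The gene bgm, a very long chain acyl-CoA synthetase, had 51.3 and 48.7 RPKM in Bully heads, against 27.6 and 21.1 RPKM in CantonS heads (1.03, adjusted p = 0.00992). CG6543 (Echs1), an enoyl-CoA hydratase gene, rose by 0.84 (adjusted p = 0.0391). The glutathione synthetase genes GS and CG32495 (Gss1 and Gss2 in RefSeq) had identical values, 169 and 141 RPKM in Bully heads and 66.5 and 84.8 RPKM in CantonS heads (1.03, adjusted p = 0.0173), so their reads cannot be separated. The globin gene glob1 fell, with 73.5 and 61.2 RPKM in Bully heads and 149 and 134 RPKM in CantonS heads (-1.07, adjusted p = 0.0318). The lines did not overlap in these genes, but the calls depended on single libraries. The calls of Sodh-2, Got2, bgm, CG6543, GS and glob1 were each lost without Bully a and without Bully b, and all but that of bgm also without CantonS a. Sodh-2, CG6543 and glob1 were lost without either Bully library of 19C too, and glob1 without CantonS b. The highest adjusted p was 0.245 for Sodh-2, 0.147 for Got2, 0.0894 for bgm, 0.218 for CG6543, 0.132 for GS and 0.235 for glob1.

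Of 19 cuticle protein genes tested (of 122), 1 rose and 5 fell, with a median of 0.10. Differences were above 0 in 10 and below 0 in 9, and the falls include copies and overlapping genes that may share reads. Lcp65Ag1 had 13.4 and 12.1 RPKM in Bully heads, against 34.7 and 45.8 RPKM in CantonS heads (-1.61, adjusted p = 0.0073). Its copies Lcp65Ag2 (-1.48, adjusted p = 0.0145) and Lcp65Ag3 (-1.47, adjusted p = 0.0108) are close copies, and reads may have been shared between them, so they are not 3 independent results. Cpr57A (-1.20, adjusted p = 0.0271) and Cpr49Ag (-0.66, adjusted p = 0.0363) fell as well. Cpr72Ec, a gene of the corneal lens of the eye, rose, with 143 and 107 RPKM in Bully heads and 26.7 and 57.1 RPKM in CantonS heads (1.65, adjusted p = 0.0388). The lines did not overlap in these genes. Without Bully a, as without Bully b, each of the 6 calls was lost. Lcp65Ag2, Lcp65Ag3, Cpr57A and Cpr49Ag were also lost without CantonS b, Cpr49Ag and Cpr72Ec without CantonS a, Cpr49Ag without either Bully library of 19C and Cpr72Ec without either CantonS library of 19C. The highest adjusted p was 0.072 for Lcp65Ag1, 0.126 for Lcp65Ag2, 0.0976 for Lcp65Ag3, 0.156 for Cpr57A, 0.19 for Cpr49Ag and 0.203 for Cpr72Ec.

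Receptors of the methuselah family, G protein-coupled receptors named after a long-lived mutant, differed in 4 of 8 genes tested (of 16 in the table), 3 higher and 1 lower, with a median of 0.31. That was 50% of the list, against 3.03% of all genes tested. At 25C mthl14 and mthl8 were each far below 1 RPKM in 1 line, so the other line carried them towards the filter. Such genes raise the share called, which is therefore not a result about the family. For mthl14 the values were 5.79 and 3.97 RPKM in Bully heads, against 0.171 and 0.133 RPKM in CantonS heads (3.02, SE 0.18, adjusted p = 9.21e-05). For mthl8 they were 0.0132 and 0.0138 RPKM in Bully heads, against 1.51 and 1.66 RPKM in CantonS heads (-2.02, SE 0.13, adjusted p = 1.49e-04), so that each line was near 0 for a receptor the other expressed. The neighbours mthl4 (0.97, adjusted p = 0.00973) and mthl3 (0.86, adjusted p = 0.025) rose together. Their log2 ratio varied by only 0.37 over the 8 libraries, so they need not be separate results. With single libraries left out, mthl14 and mthl8 kept their calls, mthl4 was lost without Bully b or either CantonS library of 25C (up to 0.0882), and mthl3 without any 1 of the 4 libraries of 25C (up to 0.199). The gene CG3397 showed the same near absence as mthl8, with 0.0340 and 0 RPKM in Bully heads, against 2.29 and 3.15 RPKM in CantonS heads (-2.63, SE 0.21, adjusted p = 4.39e-04), and was kept too. The pseudocount of 0.5 RPKM shrinks the log2 differences of such genes.

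Among genes of neural signalling, calls were few. Of 48 neuropeptide and peptide receptor genes tested 2 rose and 0 fell (4.17% called, near the 3.03% of all genes tested), with a median of 0.01. Nplp3, a neuropeptide-like precursor gene, had 175 and 224 RPKM in Bully heads, against 64.7 and 102 RPKM in CantonS heads (1.28, adjusted p = 0.03). The receptor gene of short neuropeptide F, sNPF-R, had 4.40 and 4.06 RPKM in Bully heads, against 2.01 and 2.38 RPKM in CantonS heads (0.81, adjusted p = 0.0134). The nicotinic acetylcholine receptor subunit gene nAcRbeta-21C, picked after its value had been seen, had 12.9 and 11.2 RPKM in Bully heads, against 5.99 and 4.12 RPKM in CantonS heads (1.19, adjusted p = 0.0357). Arc1, a capsid-like gene switched on by neural activity and also tied to metabolism, had 75.5 and 33.6 RPKM in Bully heads, against 12.7 and 13.5 RPKM in CantonS heads (1.91, adjusted p = 0.0145). It was the only call among 10 activity-regulated neuronal genes tested, whose median was 0.04, with 4 differences below 0. Both Bully libraries were above both CantonS libraries in Nplp3, sNPF-R, nAcRbeta-21C and Arc1, but the Bully libraries of Arc1 were themselves far apart. All 4 calls were lost without CantonS a. Nplp3, sNPF-R and nAcRbeta-21C were also lost without Bully a or Bully b, and nAcRbeta-21C and Arc1 without CantonS b. The highest adjusted p was 0.225 for Nplp3, 0.113 for sNPF-R, 0.19 for nAcRbeta-21C and 0.116 for Arc1.

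Peptides tied to aggression or its control did not pass at 25C. Drosulfakinin (Dsk), a satiety peptide linked to aggression, had 40.6 and 32.9 RPKM in Bully heads, against 24.5 and 23.5 RPKM in CantonS heads (0.60, adjusted p = 0.0902). Tachykinin (Tk), whose neurons promote male aggression, had 10.5 and 14.7 RPKM in Bully heads, against 15.2 and 14.1 RPKM in CantonS heads (-0.23, adjusted p = 0.535), and overlapped. The clock output peptide Pdf was at -0.58 (adjusted p = 0.112) and the insulin-like peptides at 0.57 for Ilp3 (0.0891) and -0.38 for Ilp2 (0.357). In the list of 12 genes tested from earlier work on fly aggression limma called 0, with 1 at an unadjusted p below 0.05 and a median of 0.04. The same counts, 0 called and 1 at an unadjusted p below 0.05, were found for 25 biogenic amine genes (median 0.01), 37 synaptic vesicle and transmitter genes (-0.12) and 30 ion channel genes (-0.06). Of 17 circadian clock genes limma called 0, with 2 at an unadjusted p below 0.05. Over all genes tested these shares were 3.03% and 16.9%. In the synaptic list 30 of 37 differences were below 0, and 20 did not overlap in the lower direction, which was so for 20.4% of all genes tested. Its median was -0.20 to -0.07 with single libraries left out and 0.07 at 19C. The 5 neuron markers summed to 76.6 and 89.0 RPKM in Bully heads, against 98.7 and 90.9 RPKM in CantonS heads. Their part in this result was not tested. The 7 glia markers overlapped, with sums of 433 and 429 RPKM in Bully heads and 455 and 404 RPKM in CantonS heads. A p that misses the threshold in groups of 2 does not show that these genes were equal in the lines.

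**Figure D4:**
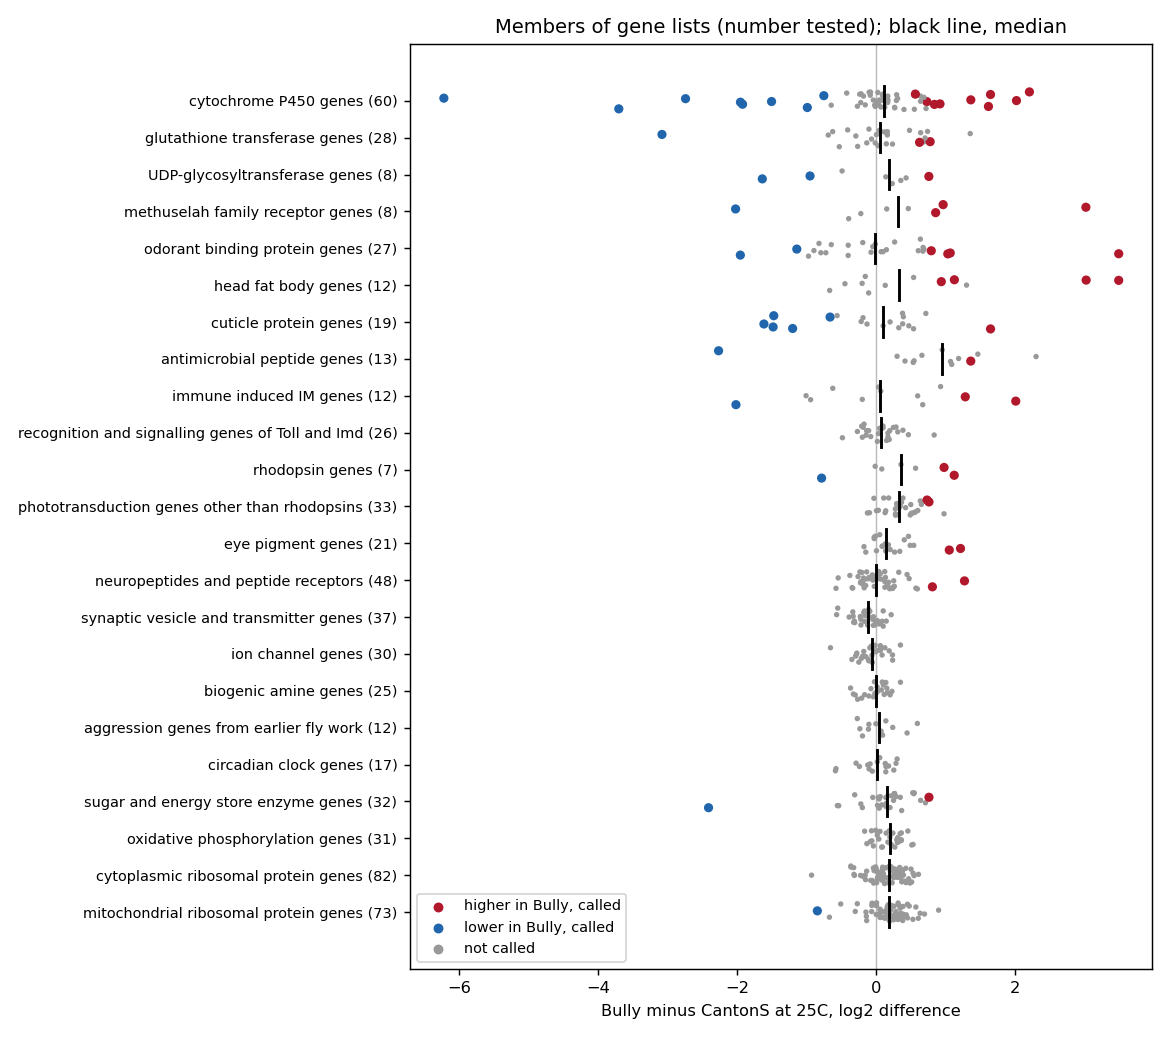
Each point is a gene, placed by its log2 difference between Bully and CantonS heads at 25C, with called genes in red (higher in Bully) and blue (lower in Bully), in 23 gene lists with the number of genes tested in brackets and a black line at the list's median. Detoxification, immune effector, odorant binding protein and cuticle lists spread widely to both sides, while the synaptic, ion channel, clock, ribosomal and oxidative phosphorylation lists lie within 1 log2 unit of 0.

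Among housekeeping genes, limma called 0 of 82 cytoplasmic ribosomal protein genes (3 at an unadjusted p below 0.05, median 0.18), 0 of 31 oxidative phosphorylation genes (2, median 0.20) and 0 of 28 proteasome genes (4, median 0.14). Of 73 mitochondrial ribosomal protein genes 1 was called, mRpL33, with 5.34 and 5.21 RPKM in Bully heads and 10.1 and 9.64 RPKM in CantonS heads (-0.84, adjusted p = 0.00973), and the list's median was 0.19. In that list 16 genes had an unadjusted p below 0.05, 61 of 73 differences were above 0, and 35 genes did not overlap in the higher direction, against 31.3% of all genes tested. At 19C the medians were -0.73 for cytoplasmic ribosomal protein genes, -0.43 for mitochondrial ones, -0.51 for oxidative phosphorylation and -0.34 for the proteasome. The median of the cytoplasmic ribosomal protein genes was -0.013 without CantonS a. The call of mRpL33 was lost without Bully a, Bully b or CantonS a (up to 0.0836). Of 13 serpin genes, inhibitors of serine proteases, Spn55B fell (-1.03, adjusted p = 0.0273; lost without any 1 of the 4 libraries of 25C, up to 0.213). Of 122 long noncoding genes with a CR number 7 rose and 4 fell (9.02% called, against 3.03% of all genes tested).

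Of 3928 genes with a CG number as their name in the table, some of which have names elsewhere, 84 rose and 49 fell. That was 3.39% called, near the 3.03% of all genes tested, and the median was 0.07. The largest rise among them was CG7366, with 6.2 and 5.90 RPKM in Bully heads, against 0.110 and 0.249 RPKM in CantonS heads (3.28, SE 0.15, adjusted p = 3.25e-05). The largest fall was CG34215, with 0.681 and 1.10 RPKM in Bully heads, against 10.3 and 9.58 RPKM in CantonS heads (-2.92, SE 0.15, adjusted p = 3.75e-05). CG7768 had 0.436 and 0.481 RPKM in Bully heads, against 6.40 and 5.03 RPKM in CantonS heads (-2.69, SE 0.17, adjusted p = 9.80e-05). CG31205 had 46.7 and 44.4 RPKM in Bully heads, against 8.19 and 6.33 RPKM in CantonS heads (2.58, SE 0.22, adjusted p = 6.63e-04), and CG33926 (Srg3 in RefSeq) 18.8 and 17.6 RPKM, against 3.95 and 3.14 RPKM (2.22, SE 0.18, adjusted p = 4.39e-04). All 5 kept their calls with any library left out and showed no overlap between the lines. So did CG2650 (dyw in RefSeq), known as daywake for its role in daytime wakefulness, with 2.08 and 1.66 RPKM in Bully heads and 0.498 and 0.449 RPKM in CantonS heads (1.28, adjusted p = 0.00199). CG15666 (BBS9), a gene of a protein complex of cilia, had 2.27 and 1.96 RPKM in Bully heads, against 0.423 and 0.522 RPKM in CantonS heads (1.43, adjusted p = 8.20e-04). The splicing factor gene ncm had 12 and 14.1 RPKM in Bully heads, against 3.73 and 3.70 RPKM in CantonS heads (1.68, SE 0.12, adjusted p = 2.36e-04), and these 3 calls were kept as well.

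Among the 15 largest rises were also CG34423 (2.33, adjusted p = 0.00428) with the overlapping noncoding gene CR44168 (2.23, 0.00411), CG16898 (2.07, 0.00442) and Dip-B (2.02, 0.0412), and among the 15 largest falls CG3939 (-2.01, 0.00458). CG16898 was lost without Bully a (0.0511), and Dip-B without Bully a, either CantonS library of 25C or either CantonS library of 19C (up to 0.249), while the other 3 were kept with any library left out.

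CG13646, a gene that the study followed up, lay below the filter, with 0.0827 and 0.0300 RPKM in Bully heads, against 0.478 and 0.568 RPKM in CantonS heads. With low genes kept in the model, 13921 in all, it was lower in Bully (-0.88, SE 0.10, adjusted p = 0.0131). Its values lay near or below the pseudocount of 0.5 RPKM, which shrinks this log2 difference below that of the RPKM values themselves. It was chosen on these samples, so this is not independent evidence of its direction.

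Called genes were not spread evenly over the chromosomes. By RefSeq's Release 6, the 255 that could be placed made up 4.76% of the genes tested on arm 2R (82 of 1724), 3.47% on 2L (52 of 1498), 2.77% on 3R (58 of 2092), 2.53% on 3L (40 of 1578), 2.44% on chromosome 4 (2 of 82) and 1.49% on the X (21 of 1405), which is a description without a test. Among genes tested, 48 called genes lay in 23 runs of direct neighbours called in the same direction, and in 13 of these runs, with 28 genes, the annotated spans did not overlap. The longest such runs had 3 genes. Ubc12, CG8005 and CG7366 on 3L were higher in Bully, by 0.79, 1.04 and 3.28, and CG6912, CG3984 and CG3987 on 3R were lower, by -1.67, -2.22 and -1.42. On 2R the efflux transporter gene Mdr50 lay beside CG8503 (1.05, adjusted p = 0.008), and on 3L CkIIalpha-i3 (-1.35, adjusted p = 5.44e-04) beside CG13895 (-1.0, adjusted p = 0.00631). Of the genes in these runs CG7366, CG6912, CG3987, Mdr50 and CkIIalpha-i3 kept their calls with any library left out. CG3984 was lost without Bully a (adjusted p = 0.0511), CG13895 without Bully b (0.066), CG8005 and CG8503 without Bully a, Bully b or CantonS a (up to 0.131 and 0.074), and Ubc12 without any 1 of the 6 libraries outside CantonS 19C (up to 0.169). Ada2a, an adaptor of histone acetyltransferases, and Rpb4, a subunit of RNA polymerase II, are made from 1 shared locus and fell together (-1.19 and -1.38, adjusted p = 0.00309 and 0.00162).

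The 4 libraries raised at 19C gave a second look at the same genes in other flies. This look is not independent of the calls, because the fit took its spread from all 8 libraries. With only the groups raised at 25C in the model, 154 of the 257 genes stayed called. Of the 257 genes called at 25C, 229 differed in the same direction at 19C without overlap between the lines, 16 overlapped, and 12 differed in the opposite direction without overlap. At 19C 976 genes were called (11.5%), and 23.1% of all genes tested were higher and 36.9% lower in Bully without overlap. All 17 P450 genes called at 25C kept their direction without overlap at 19C, as did the 6 odorant binding protein genes, the 6 cuticle genes, the 4 methuselah family genes and the 3 rhodopsins. In other lists 2 of 3 called glutathione transferase genes, 1 of 2 antimicrobial peptide genes and 1 of 4 head fat body genes overlapped at 19C. The median of all antimicrobial peptide genes tested was 0.95 at 25C and -1.70 at 19C. Lsp1beta had a log2 difference of 3.34 at 19C, Cyp6a2 -5.71, phr -3.58 and Gapdh2 -2.24. The difference of IM23 was -3.06 at 19C and that of Obp99b 2.52.

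The 12 genes with the opposite direction at 19C, among them IM18 and CG10332 with identical values, were all higher in Bully at 25C. None of them was called at 19C, with limma's adjusted p from 0.0558 for CG11597 to 0.65 for CG4860. Their direction at 19C thus rests on libraries that did not overlap, which was so in the lower direction for 36.9% of all genes tested. CG11597 had 17.7 and 19.7 RPKM in Bully heads at 25C, against 4.53 and 6.28 RPKM in CantonS heads (1.71, adjusted p = 0.0192), and 5.14 and 5.76 RPKM in Bully heads at 19C, against 8.07 and 16.9 RPKM in CantonS heads (-1.04). Its call at 25C was lost without Bully a, Bully b or CantonS a (up to 0.161). IM18 was at 2.01 at 25C and -0.64 at 19C, rtp at 0.76 and -0.35, and ninaA at 0.74 and -0.52. Thus both called phototransduction genes were among the 12, while Rh6, Rh4 and Rh5 were not. The test of the difference between the temperatures called 0 genes with limma (0%), while 2018 genes (23.8%) had an unadjusted p below 0.05. The smallest adjusted p was 0.0921. This count rested on single libraries, being 903 without CantonS 19C a, 466 without CantonS b and 5 without Bully b.

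**Figure D5:**
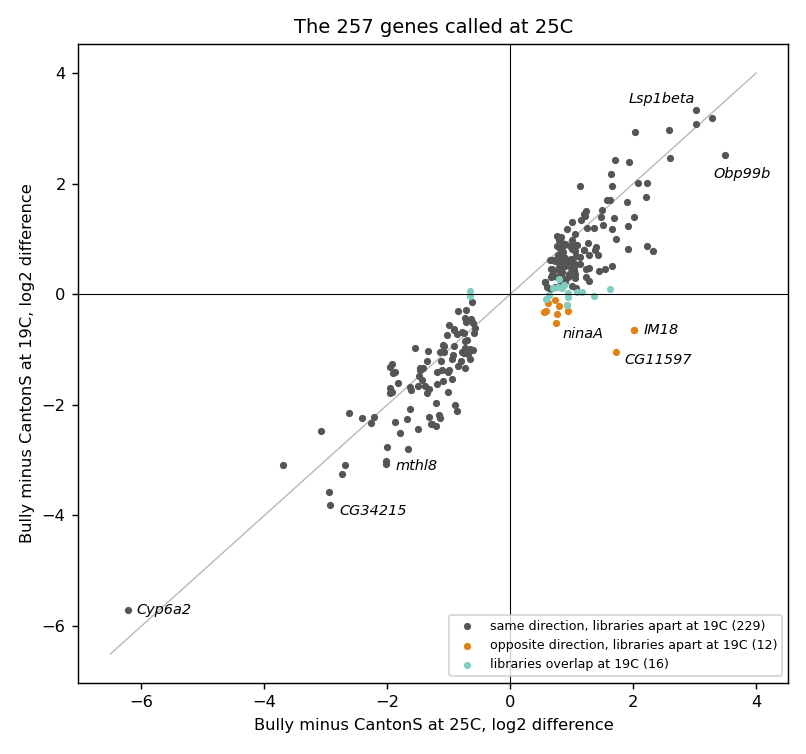
The log2 difference between Bully and CantonS heads at 19C (vertical axis) is plotted against that at 25C (horizontal axis) for the 257 genes called at 25C, with a grey line where both are equal. Grey points (229) have the same direction and no overlap at 19C, orange points (12) the opposite direction without overlap, and green points (16) overlap between the lines at 19C.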

How the data were processed

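Whole-head RNA of 4 groups (Bully and CantonS, raised at 25C or 19C, 2 libraries each) was measured by RNA-seq, and the comparison described here took the 2 Bully and 2 CantonS libraries of 25C. The authors deposited 1 table of RPKM values per gene. Per the submitters' processing notes, TopHat2 2.0.4, edgeR 3.8.6 and the builds dm3 and BDGP5 were used. The counting program, the handling of reads with several matches and the use of strand are not given in the sources used here.

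Genes whose mean over the 8 libraries reached 1 RPKM were kept, and log2(RPKM + 0.5) was fitted with 4 group means over the 8 libraries in limma 3.58.1 (R 4.3.3), with a mean-variance trend and Benjamini-Hochberg adjustment over the 8480 genes. Every adjusted p comes from that model, and a gene was called at an adjusted p below 0.05. The fit adjusts for no batch, since the labels give none. The model was tested on simulated data first. Differences are always Bully minus CantonS. RPKM divides by gene length and library total, so a few very abundant eye genes can shift all others, which the rescaling alternatives address. Read numbers are not in the table. Effective library sizes (47.5 to 117.7 M reads over the 8 libraries) were recovered from the steps between low RPKM values, and they set the precision of low genes. At the best size searched for each library, the values of about 80.5 to 82.1% of low single-transcript genes came out whole within 0.02 reads. The size reported was near the smallest whose share came close to that best one, so its own share can be lower.

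The members and gene lists were chosen with earlier results of these data known, so list counts and medians are descriptions and no list was tested. Gene names follow the table, and RefSeq names, chromosome arms and neighbours come from RefSeq's Release 6, which matched 8380 of the genes tested; coordinates are not given because the builds differ. Genes were named by rule, of which not all are printed: the 15 largest rises and falls, up to 4 members of each list by their moderated t, the 10 most abundant called genes, genes at or below 0.1 RPKM in one line and at or above 1 RPKM in the other, called genes in runs of neighbours, and CG13646. Chosen after their values were seen were the other P450 genes (Cyp6a23, Cyp6w1, Cyp6a9, Cyp6a14, Cyp6a20, Cyp6a21, Cyp6a22, Cyp305a1, Cyp309a2, Cyp311a1, Cyp313a1), CG2650, CG6543, CG10924, CG11597, CG13422, CG15666, CecA1, DptB, Drsl4, Cpn, Cpr49Ag, Cpr72Ec, Gapdh1, Got2, GS, glob1, Ilp2, nAcRbeta-21C, ncm, Obp83cd, Rh2, Rh3, Rh7, trp and roX1. Alternatives were other pseudocounts, filters, scalings, priors and thresholds, a fit of the 25C groups alone, a correction for gene length, and leaving out each library.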

Additional observations from a re-analysis of the deposited data

How the results depend on the processing

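Of the 257 calls (158 higher, 99 lower), counts over all genes moved by more than 1.5 times in these cases. In total 156 genes were called at a mean of at least 5 RPKM (48 lower), 166 with only the groups raised at 25C in the model (92 higher), 460 at an adjusted p below 0.1 (314 higher), and 139 with a 2-fold minimum added (78 higher, 61 lower). With the length trend removed, an alternative chosen after seeing the data, 175 genes were lower. With 1 library left out the total was 77 to 398, the higher genes 43 to 255 and the lower genes 34 to 143, lowest without Bully a and highest without CantonS 19C b. For the difference between temperatures the count of 0 became 1 without the filter, 280 at an adjusted p below 0.1, and 0 to 903 with 1 library left out. The cause was not tested in any of these, other than that fewer genes or samples entered some of them.

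List medians near 0 changed sign when CantonS a was left out for glutathione transferases (-0.035), biogenic amines (-0.042), immune-induced genes (-0.096), neuropeptides (-0.063), Toll and Imd genes (-0.0019) and repair genes (0.022), when CantonS b was left out for UDP-glycosyltransferases (-0.066) and aggression genes (-0.069), and when Bully b was left out for clock genes (-0.0087), cuticle genes (-0.014) and lipid genes (0.052). Some of these lists changed sign without other libraries too. Immune-induced genes did so without Bully a (-0.054) and CantonS b (-0.021), and lipid genes without CantonS a (0.015). Without Bully b the same held for aggression genes (-0.055) and neuropeptides (-0.010), and activity-regulated genes changed sign as well (-0.0071).

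No called gene changed sign. Uncalled genes near 0 did: with the length trend removed Cyp6a20 was at -0.022, Rh3 at -0.063 and Rh7 at 0.0052, and with quantile normalization Rh3 was at -0.12 and ninaE, the most abundant gene, at 0. With 1 library left out Cyp6a20 ranged over -0.10 to 0.29, DptB over -1.21 to 3.12, CecA1 over -1.49 to 2.57, Rh3 over -0.058 to 0.23, Rh7 over -0.10 to 0.080 and Tk over -0.47 to 0.0045.

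No paired analysis was possible because the columns of the table name the group and carry no replicate number. Precision is limited by 2 libraries a group and by depth, which was lowest in CantonS a (47.5 M reads).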
